A study of Mus musculus with 10 samples.

Results

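A set of 37 autism risk genes of mixed function was followed in the cortex of mice that carry a Chd8 knock-in allele (KI), beside wild-type (WT) mice. The genes encode transcription factors, coregulators, regulators of protein turnover and translation, and adhesion or cytoskeletal proteins. Histone enzymes, chromatin remodellers, receptors and ion channels linked to autism were kept out of the set by its rule. Members were matched by gene symbol in the authors' deposited table, and all 37 of 37 were found there, among 13661 genes. The study measured poly(A) RNA by sequencing in 5 KI and 5 WT libraries, with 1 male mouse of 8 weeks behind each library. Its title describes the KI line as a model of duplication of Chd8. The labels name no strain, litter or dose of the allele, and nothing else shared by the groups.

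CHD8 is an ATP-dependent chromatin remodeller that is found mostly at active promoters, and its loss is one of the recurrent genetic causes of autism. The genes followed here are also risk genes in which single-copy loss or another damaging change is found in people with autism or intellectual disability. Many of them act on transcription in developing neurons. The comparison asks whether a cortex with more Chd8 mRNA has different levels of these genes.

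The deposited values are 1 line per gene for the KI against WT comparison, so values per library, their SD and the depth of each library are unknown. Mean normalised counts over all libraries ran from 24.4 to 325080, with a median of 548.6. No column states which genotype is on top of the fold change. It was taken to be KI, the reading on which Chd8 is higher in KI than in WT. Chd8 then had a log2 fold change of 0.49 in the authors' deposited table (standard error 0.10; authors' DESeq2 Wald test, adjusted p = 0.0044), which is 1.40-fold (95% interval 1.22 to 1.61). The cortical markers Slc17a7, the vesicular glutamate transporter of cortical neurons, and Tbr1, a factor of deep-layer neurons, were abundant, with mean normalised counts of 28078 and 2843 in the authors' deposited table.

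None of the 37 members passed the adjusted threshold of 0.05 of the authors' DESeq2 Wald test, and 0 had an unadjusted p under 0.05. Over all 13660 genes with a p, 0.0732% passed the adjusted threshold and 3.22% had an unadjusted p under 0.05. The smallest p among the members was 0.167, for Ldb1. Point estimates were small, and 35 of the 37 members lay within 0.1 of 0 on the log2 scale, the exceptions being Asxl3 and Nav2. The log2 fold change was positive for 27 members, or 73.0%, against 51.6% of all genes. The members' median was 0.032, which is 1.02-fold, against 0.0025 over all genes.

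**Figure D1:**
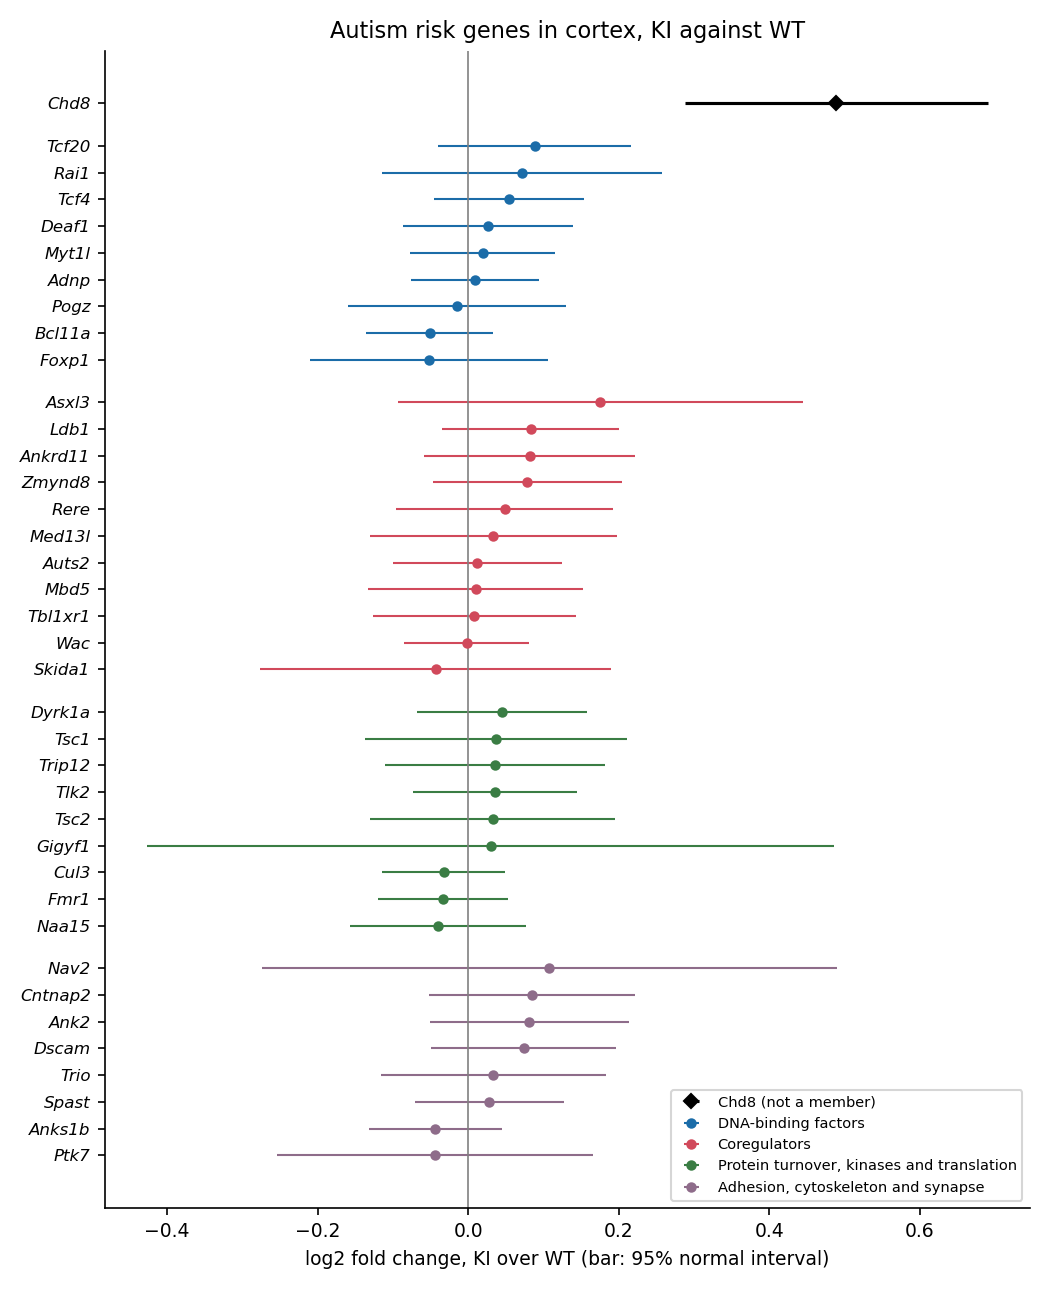
Log2 fold change (KI over WT) of each of the 37 members, grouped by role, with Chd8 at the top. Points are the authors' deposited estimates and bars are 95% normal intervals from the deposited standard errors; all 37 member intervals hold 0, while the interval of Chd8 does not.

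Among the 9 DNA-binding factors and their close nuclear relatives, 6 had a positive log2 fold change (median 0.019). Tcf20, a nuclear coregulator related to Rai1, was the highest at 0.088 (standard error 0.065, p = 0.175), or 1.06-fold, with a mean normalised count of 2464 in the authors' deposited table. Rai1, the nucleosome-binding regulator deleted in Smith-Magenis syndrome, stood at 0.071, with a standard error of 0.095, in the authors' deposited table. Tcf20 and Rai1 are paralogs, and both estimates were positive with intervals that hold 0.

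Tcf4, a basic helix-loop-helix factor of the E protein family, stood at 0.054 (0.051), and Deaf1, a SAND domain factor, at 0.026 (0.057), as log2 fold change and standard error in the authors' deposited table. Myt1l, a zinc finger factor that represses non-neuronal genes in neurons, was at 0.019 (0.049) and Adnp, which works in a complex with CHD4, at 0.0095 (0.043) on the same scale in the authors' deposited table. The 3 negative factors were Pogz, an HP1-binding zinc finger protein, at -0.015 (0.074), Bcl11a at -0.051 (0.043) and Foxp1 at -0.052 (0.081, p = 0.516) in the authors' deposited table. Bcl11a, a zinc finger factor of cortical neurons, had the lowest Wald score of all members, -1.18, and Foxp1, a forkhead factor, the lowest log2 fold change. Their 95% intervals hold 1 and ran from 0.910 to 1.02-fold for Bcl11a and from 0.864 to 1.08-fold for Foxp1.

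Of the 11 coregulators, 9 were positive (median 0.034). Asxl3, a Polycomb-associated adaptor of the BAP1 deubiquitinase, had the highest log2 fold change of any member in the authors' deposited table, 0.18 (standard error 0.14, p = 0.2), or 1.13-fold with an interval of 0.938 to 1.36. It was also the member with the lowest mean normalised count, 224, and with the lowest count per kilobase of transcript. Ldb1, which joins LIM homeodomain factors into complexes, was at 0.083 (0.060) and Ankrd11, which recruits histone deacetylases, at 0.082 (0.071) in the authors' deposited table. Zmynd8, a reader of histone marks, stood at 0.079 (0.064) and Rere, an atrophin family corepressor, at 0.048 (0.073) in the authors' deposited table. These 4 ran from 1.03 to 1.06-fold, and each interval holds 1.

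The other coregulators were nearer to 0. Med13l, of the Mediator kinase module, was at 0.034 (0.084), Auts2, a partner of a variant Polycomb repressive complex, at 0.012 (0.057) and Mbd5, a methyl-CpG-binding domain protein, at 0.010 (0.073) in the authors' deposited table. Tbl1xr1, a WD40 subunit of the NCoR and SMRT corepressor complexes, stood at 0.0084 (0.069) and Wac, an adaptor in histone H2B ubiquitination, at -0.0020 (0.042) in the authors' deposited table. Skida1, a SKI/DACH domain protein with a mean normalised count of 226.7, was the lowest of the coregulators at -0.043 (0.12, p = 0.715) in the authors' deposited table. The interval of Wac, 0.943 to 1.06-fold, was among the narrowest of the set.

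The 9 genes of protein turnover, kinase signalling and translation kept within the narrowest range of estimates, from -0.040 to 0.044. Dyrk1a, the kinase of the Down syndrome critical region, was the highest at 0.044 (standard error 0.058, p = 0.44), with a mean normalised count of 1520 in the authors' deposited table. Naa15, the auxiliary subunit of the NatA acetyltransferase, was the lowest at -0.040 (0.059, p = 0.503) in the authors' deposited table. Both subunits of the TSC complex, which holds mTORC1 in check, had estimates of like size, 0.037 (0.089) for Tsc1 and 0.032 (0.083) for Tsc2 in the authors' deposited table. Neither TSC gene differed from WT by more than its error. Trip12, a HECT ubiquitin ligase, was at 0.036 (0.074) and Tlk2, a kinase of histone chaperones, at 0.035 (0.056) in the authors' deposited table. Cul3, the scaffold of ubiquitin ligases with BTB adaptors, stood at -0.033 (0.042) and Fmr1, the translational regulator lost in fragile X syndrome, at -0.033 (0.044) in the authors' deposited table. Cul3 and Fmr1 were among the most precisely measured members. Gigyf1, a translational repressor partner, had an estimate of 0.030 with the largest standard error of all members, 0.23, in the authors' deposited table.

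The promoter windows of Fmr1 and Tsc2 are shown because these were the 2 members with a RefSeq window that holds CCGGAAGT on either strand. Windows ran from 250 bases before to 50 after a start (GRCm38.p6), and CCGGAAGT is a core of ETS family sites. Fmr1 has 2 windows, and only that printed holds the motif. ETS motifs are known from binding studies to be frequent at promoters that CHD8 occupies. The match is in capitals, and in Fmr1 it is read as ACTTCCGG on the strand printed. The windows lie at chrX:68678332-68678631 on the plus strand (Fmr1) and at chr17:24632578-24632877 on the minus strand (Tsc2).
Fmr1: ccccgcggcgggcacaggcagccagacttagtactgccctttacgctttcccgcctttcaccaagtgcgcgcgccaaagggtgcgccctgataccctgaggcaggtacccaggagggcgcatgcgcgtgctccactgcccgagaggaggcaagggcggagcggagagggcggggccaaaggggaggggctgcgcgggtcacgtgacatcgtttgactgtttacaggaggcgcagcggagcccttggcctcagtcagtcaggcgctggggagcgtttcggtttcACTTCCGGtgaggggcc
Tsc2: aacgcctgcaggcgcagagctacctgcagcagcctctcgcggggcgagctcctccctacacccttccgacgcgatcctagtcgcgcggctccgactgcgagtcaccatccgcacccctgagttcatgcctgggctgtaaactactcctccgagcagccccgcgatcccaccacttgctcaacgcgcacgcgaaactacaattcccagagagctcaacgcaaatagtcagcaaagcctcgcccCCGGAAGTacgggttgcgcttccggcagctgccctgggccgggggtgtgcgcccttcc
Windows were found for 32 of the 37 members, 59 windows in all. Of these windows 3.39% hold the motif, against 7.29% of the 13791 windows of all genes tested. Counted by gene, 6.25% of the 32 members hold it in any window, against 8.54% of 10702 genes. Taken gene by gene, the median number of CpG dinucleotides in a window was 23.5 for the members and 21 for all genes tested. The windows printed hold 26 for Fmr1 and 29 for Tsc2. Neither gene differed between KI and WT by more than its error, and the files hold no measurement of binding at these windows.

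Among the 8 genes of adhesion, cytoskeleton and synapse, 6 were positive (median 0.054). Nav2, a neuron navigator that acts on the cytoskeleton, was the highest at 0.11 (standard error 0.19, p = 0.58) in the authors' deposited table, with an interval from 0.827 to 1.40-fold. Cntnap2, the adhesion protein CASPR2 that clusters potassium channels, was at 0.085 (0.070), Ank2, encoding ankyrin-B, at 0.081 (0.068) and Dscam, an immunoglobulin superfamily adhesion molecule, at 0.074 (0.063) in the authors' deposited table. These 3 had similar Wald scores, with p from 0.226 to 0.24. Trio, an exchange factor for RAC1 and RHOA, stood at 0.034 (0.076) and the microtubule-severing enzyme spastin (Spast) at 0.028 (0.051) in the authors' deposited table. Anks1b, a postsynaptic adaptor that binds PSD-95, was at -0.044 (0.045) and Ptk7, a receptor of planar cell polarity, at -0.044 (0.11, p = 0.678), the lowest of the group, in the authors' deposited table.

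Levels were compared between genes as mean normalised counts per kilobase of the longest transcript. Anks1b was the most abundant member on that scale, at 965 per kilobase, followed by Ank2 at 742, Myt1l at 736, Tcf4 at 713 and Ldb1 at 602. The least abundant were Asxl3 at 19.1, Skida1 at 51.8, Ptk7 at 58.3 and Nav2 at 97.9. The median was 312 per kilobase for the members and 166 for all genes tested, and 34 of the 37 had a mean normalised count at or above the median of all genes. The spread between animals in these levels is unknown, so the order of neighbours is a description.

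The depth of measurement on these genes bounds the differences that could have gone unseen. The 95% interval lay within 0.25 of 0 on the log2 scale (0.841 to 1.19-fold) for 31 members, or 83.8%, against 54.9% of all genes, and within 0.5 for all 37. The median standard error was 0.068 for the members and 0.089 for all genes. The members also had higher counts, with a median of 1958.5 against 548.6 for all genes. Set beside genes of similar count, 21 of the 37 had a standard error above the median. The upper bound was under the Chd8 point estimate of 0.49 for 36 members, and under the lower bound of Chd8 for 34. With the deposited standard errors, a member would have needed a Wald score of 4.11 to pass the adjusted threshold as the next gene. That corresponds to a median change of 1.21-fold over the members, from 1.13-fold for Cul3 to 1.94-fold for Gigyf1. These are sizes of the estimate needed to pass, and they do not mark which true differences could be detected.

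Transcript length moved with the direction of the members. The members are long, with a median of 7348 bases for the longest GENCODE transcript against 3524 bases for all genes, and 32 of them (86.5%) fell in the 3 longest deciles of all transcripts, those of at least 4618 bases. In those deciles 64.9% of all 4033 genes had a positive log2 fold change, and so did 25 of the 32 members, or 78.1%. Outside them 2 of 5 members were positive. In the longest decile, from 7011 bases, 74.8% of all genes and 18 of 21 members were positive, with medians of 0.043 for all genes and 0.037 for the members. Genes are not independent replicates, so correlations across them are descriptions. The Spearman correlation of log2 fold change with transcript length was 0.22 over 13442 genes and 0.50 over the 37 members, all measured in the same libraries.

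A lowess curve of log2 fold change on log10 transcript length was therefore fitted over all genes, and each member was read against the curve at its own length. The curve stood at -0.0053 at the length of Deaf1 and at 0.065 at that of Ank2, the shortest and longest members. Above it lay 19 of the 37 members, or 51.4%, against 49.7% of all genes, and the members' median distance from it was 0.0059. Thus the positive lean of the members was close to that of other transcripts of their length. Those farthest above the curve were Asxl3 (0.12), Ldb1 (0.086), Tcf20 (0.060) and Zmynd8 (0.059). Ldb1, at 3133 bases one of the 2 shortest members, stood where the curve was at -0.0031. Farthest below were Foxp1 (-0.079), Anks1b (-0.073), Bcl11a (-0.070) and Naa15 (-0.069). With the curve subtracted and the deposited standard errors kept, the smallest normal p among the members was 0.103.

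**Figure D2:**
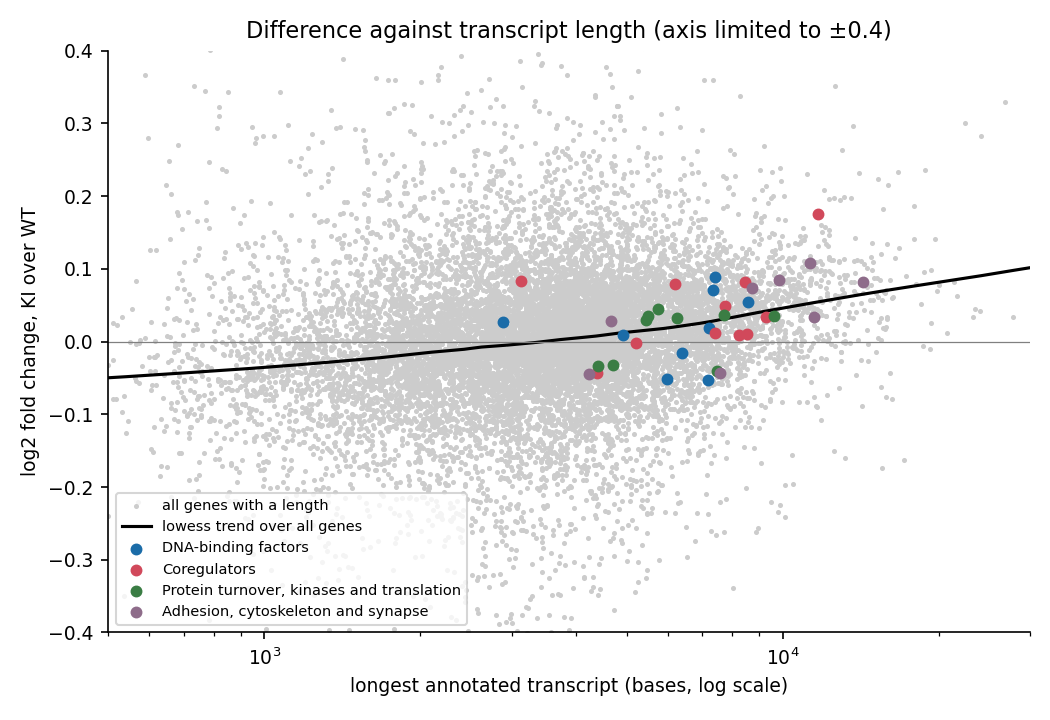
Log2 fold change (KI over WT) against the length of the longest annotated transcript in bases, on a log axis, for all genes (grey) and the members (coloured by role), with the lowess curve over all genes. The curve rises with length, and 19 of the 37 members lie above it.

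By role, 4 of 9 DNA-binding factors, 5 of 11 coregulators, 5 of 9 genes of turnover and translation, and 5 of 8 adhesion and cytoskeletal genes lay above the curve. The medians of their distances were -0.0029, -0.0083, 0.0059 and 0.017. GC content of the transcript was a further property that moved with the members' values. Of the 15 members at or above the median GC content of all genes (49.8%), 14 were positive, and of the 22 below it 13 were; this split was chosen after the values were seen. Over all genes 50.4% at or above that GC content and 52.5% below it were positive. The Spearman correlation of GC content with log2 fold change was 0.34 over the 37 members and -0.028 over 13442 genes. Over 123 other autism risk genes it was -0.11. Of these, 72.9% at or above that GC content and 78.1% below it were positive. The part of GC content in the members' values was not tested.

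The error of the estimate differed widely between members of similar abundance. A standard error was set beside the median of the 500 genes nearest in mean normalised count. Cul3, Bcl11a, Fmr1 and Wac had standard errors between 0.718 and 0.725 of that median, in the lowest 10% of genes at their abundance. Gigyf1 stood at 3.50 times and Nav2 at 2.88 times the median, above 99.4% and 98.4% of genes of their abundance. In a comparison of 5 with 5 libraries, and leaving out differences in library size, such standard errors correspond to a coefficient of variation between libraries of 4.59% for Cul3, 4.73% for Bcl11a, 21.3% for Nav2 and 25.5% for Gigyf1. The median of this estimate was 7.41% for the members and 9.77% for all genes, without matching for count. Set beside genes of similar count, 21 of the 37 members had a standard error above the median. The estimate was derived from the standard errors of the authors' DESeq2 fit, and each gene's observed spread between libraries is unknown. Over the 37 members the ratio to the median was larger at higher GC content (Spearman 0.54) and in longer transcripts (0.59), whereas over 13442 genes these were 0.044 and 0.041, all descriptions from the same libraries. Over the 123 other autism risk genes the correlation was -0.12 with GC content and 0.58 with length, the second close to that of the members.

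**Figure D3:**
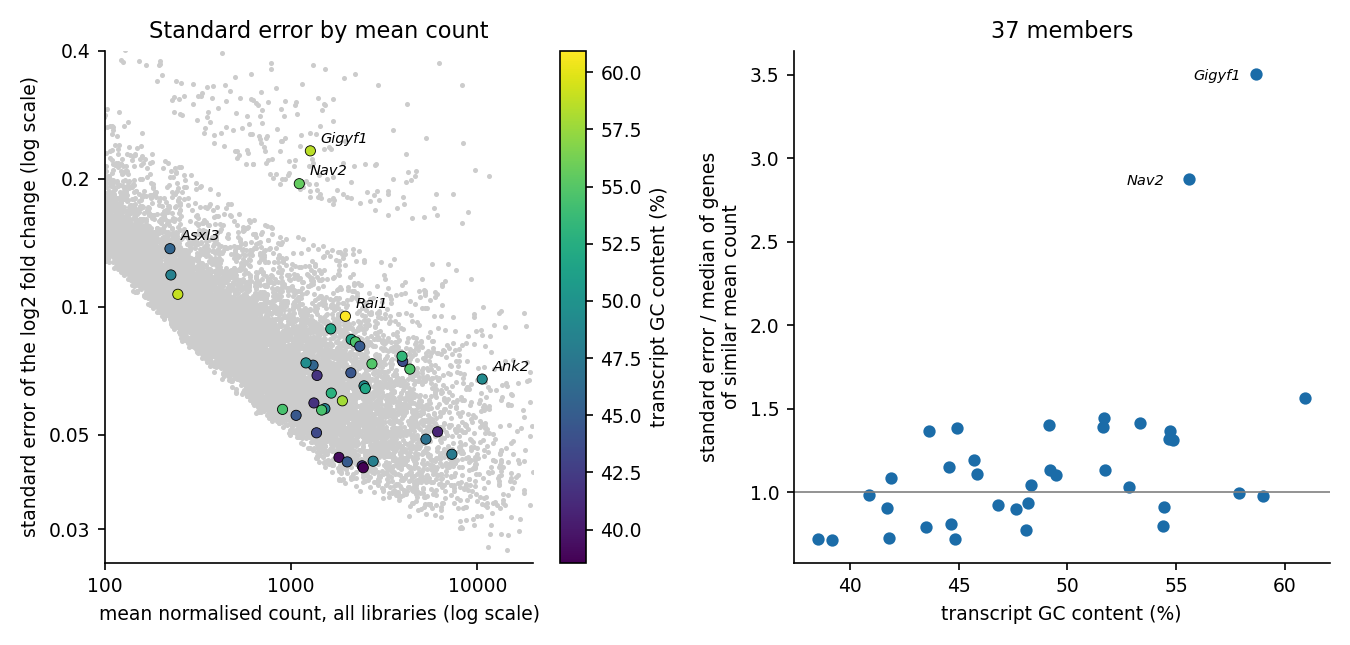
Left, standard error of the log2 fold change against mean normalised count, both on log axes, for the genes within the axis limits (grey) and the 37 members (coloured by transcript GC content). Right, each member's standard error divided by the median of genes of similar count, against GC content; Gigyf1 (3.50) and Nav2 (2.88) stand apart from the others.

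The paralogs of the members were read in the same way. Of 42 paralogs outside the set, 41 were in the table, and none passed the adjusted threshold in the authors' deposited table. Positive estimates were found for 23 of them (56.1%, median 0.017), against 73.0% of the members and 51.6% of all genes. The 1 with an unadjusted p under 0.05 (2.44%, against 3.22% of all genes) was Nav3, a relative of Nav2. It stood at 0.14 (standard error 0.073, p = 0.0471, authors' DESeq2 Wald test) in the authors' deposited table. Above the length curve lay 18 of the 41 (43.9%), against 49.7% of all genes. The paralogs named next were chosen after their values were seen. The 3 neuron navigators all had positive estimates, with Nav1 at 0.11 (0.21) in the authors' deposited table. Asxl2, a relative of Asxl3, was at 0.15 (0.077, p = 0.051) in the authors' deposited table, and Asxl1 at 0.039 (0.090). The fragile X relatives of Fmr1 stood at 0.033 (0.056) for Fxr1 and -0.0082 (0.045) for Fxr2 in the authors' deposited table. Bcl11b, the relative of Bcl11a in deep-layer neurons, was at 0.012 (0.093) and Foxp2, the relative of Foxp1, at -0.090 (0.12) in the authors' deposited table. The difference between a member and its paralog was not tested, since values per library are unknown.

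**Figure D4:**
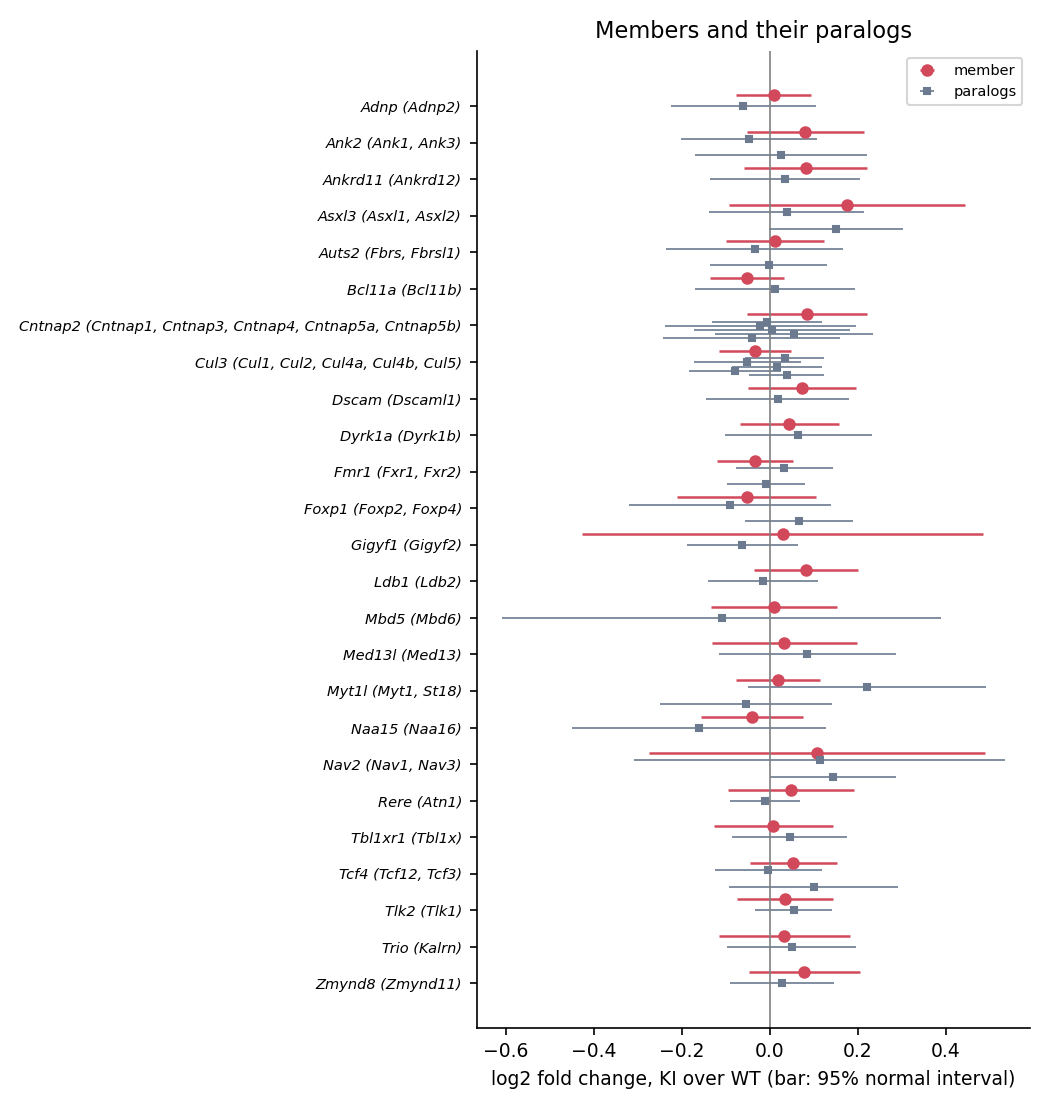
Log2 fold change (KI over WT) of the members that have a listed paralog (red circles) and of those paralogs (grey squares), with bars for 95% normal intervals. All member intervals hold 0, and among the paralogs only that of Nav3 does not.

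Genes that work with the members were taken from 5 lists written from general knowledge. In the list of mTORC1 and TSC pathway genes, 16 of 28 were positive (median 0.0093), and Akt2, a kinase that inhibits the TSC complex, was the 1 member of that list with an unadjusted p under 0.05, at -0.13 in the authors' deposited table (standard error 0.056, p = 0.021). Among partners of FMRP and GIGYF1, 12 of 19 were positive (median 0.025) and none had an unadjusted p under 0.05. NatA, cullin and ubiquitin partners leaned the other way, with 7 of 23 positive (median -0.015), 9 above the length curve and none with an unadjusted p under 0.05. Corepressor and Mediator partners had 17 of 29 positive (median 0.015), and none with an unadjusted p under 0.05. Axon and synapse partners had 19 of 32 positive (median 0.020), and Dlg2, a postsynaptic scaffold of the PSD-95 family, was at 0.10 (0.043, p = 0.0197) in the authors' deposited table. No gene of the 5 lists passed the adjusted threshold in the authors' DESeq2 Wald test.

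A list of 123 other autism risk genes holds enzymes, remodellers, receptors and channels that the 37 leave out. It also holds genes of other kinds, among them Cntn4 and Tcf7l2. Of the 123, 93 were positive (75.6%, median 0.043) and 79 lay above the length curve (64.2%). Against that, 19 of the 37 members (51.4%) were above it, and the difference was not tested. Cntn4, a neuronal adhesion gene, fell to 0.810 of WT, and Tcf7l2, a Wnt pathway factor of thalamic neurons, to 0.528 of WT, in the KI animals of the authors' deposited table (adjusted p = 0.0013 and 0.0022, authors' DESeq2 Wald test). On the positive side 3 of the 123 had an unadjusted p under 0.05 in the authors' deposited table, namely Nr4a2 at 0.22 (standard error 0.064, adjusted p = 0.438), Kif5c at 0.075 (0.030) and Chd3 at 0.10 (0.044).

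**Figure D5:**
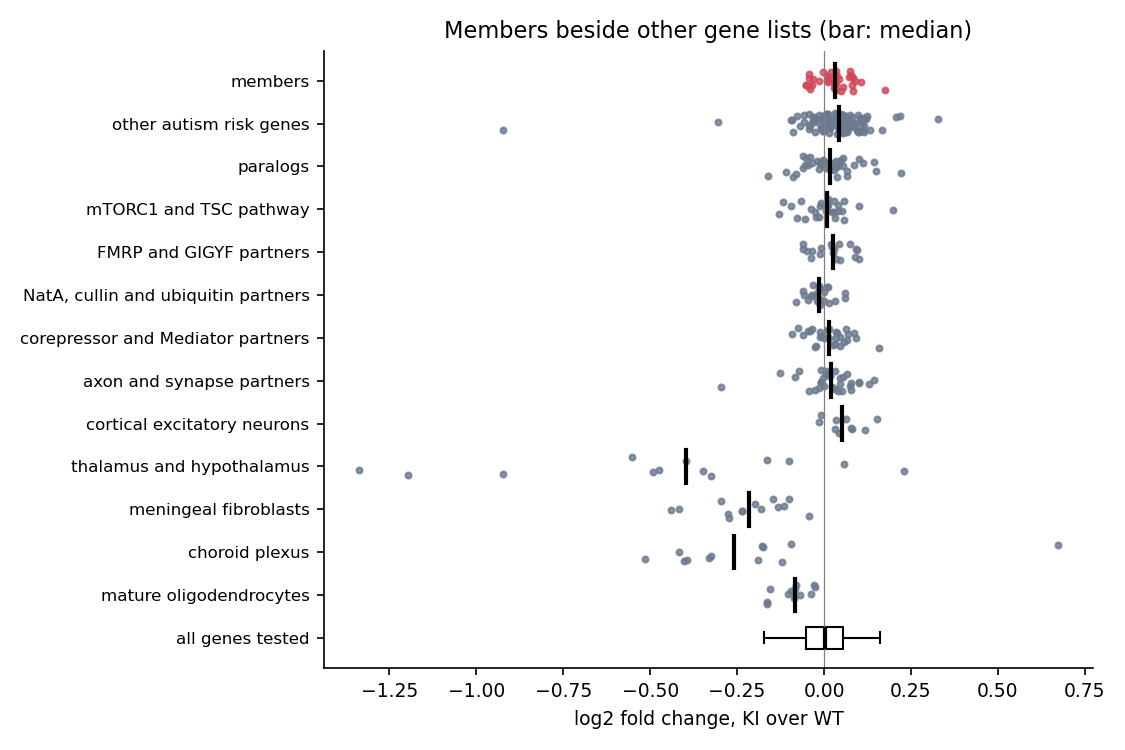
Log2 fold change (KI over WT) of every tested gene in each list (points), with the median as a black bar, and a box for all genes tested (quartiles, whiskers at the 5th and 95th percentiles). The members (red) have a median of 0.032, while the thalamic, meningeal and choroid plexus lists have medians of -0.40, -0.22 and -0.26.

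Markers of tissue next to the cortex, and of mature oligodendrocytes, leaned negative in the same table, with 5 genes past the adjusted threshold. These lists were written from general knowledge with earlier results of these data known, so their lean is a description. The thalamic and hypothalamic list had 11 of 13 genes negative (median -0.40, 4 lower at an adjusted p under 0.05 in the authors' DESeq2 Wald test, namely Tnnt1, Tcf7l2, Ramp3 and Prkcd), and the meningeal list 14 of 14 negative (median -0.22, Igf2 lower on that test). Choroid plexus genes had 11 of 12 negative (median -0.26) and mature oligodendrocyte genes 12 of 12 (median -0.085). No gene of these 2 lists passed the adjusted threshold of the same test. An unadjusted p under 0.05 was found for 7 choroid plexus genes on the negative side, for 1 on the positive side and for 2 oligodendrocyte genes, both negative. The positive choroid plexus gene was Tmem72, at 0.67 in the authors' deposited table (standard error 0.21, p = 0.0016), the largest estimate of its list in size. Cortical excitatory neuron markers had 8 of 10 positive (median 0.052). Medians were -0.0038 for astrocytes, -0.0055 for microglia, 0.026 for endothelial cells and -0.013 for inhibitory neurons. The part of these tissue markers in the members' values was not tested. In bulk tissue, fewer cells of a type and less RNA per cell cannot be told apart.

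Exons of 17 members share bases with another annotated gene, and the sources used here do not say whether the authors' counting used strand. The partner was in the table for 5 of them. These were Pprc1 for Ldb1 (177 shared bases), Orc4 for Mbd5 (136), Srebf1 for Rai1 (109), 1700052K11Rik for Tlk2 (775) and Pkd1 for Tsc2 (693), each on the opposite strand. Pkd1 stood at 0.085 (standard error 0.18) and Pprc1 at 0.13 (0.11) in the authors' deposited table. Adnp shares 82.1% of its exonic bases with the same-strand locus Gm20716, which is not analysed here. In RefSeq coordinates of GRCm38, the assembly of mm10, Ldb1 lies on chromosome 19 from 46031525 to 46048145, Tcf20 on chromosome 15 from 82808447 to 82988103, Bcl11a on chromosome 11 from 24076564 to 24173558, Gigyf1 on chromosome 5 from 137510263 to 137527935 and Nav2 on chromosome 7 from 48959063 to 49610090. These 5 genes code for proteins, and each value covers all exons that the authors counted.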

How the data were processed

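Poly(A) RNA of mouse cortex was sequenced in 5 KI and 5 WT libraries. Per the submitters' processing notes the tools were Trimmomatic 0.39, HISAT2 2.1.0, featureCounts 2.0.0 and DESeq2 1.26.0, and the build was mm10; the sources used here do not give settings, strand or annotation. Per the file headers, the deposited table gives the mean normalised count (a signal that the authors scaled for library size), a log2 fold change and its standard error, the Wald score, and the p-value and adjusted p-value by the authors' DESeq2 fit. The deposited Wald score equalled log2 fold change over standard error, and the adjusted p-value a Benjamini-Hochberg adjustment over 13660 genes.

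Symbols came from RefSeq (GRCm38) and GENCODE M21 for 13499 genes. Lengths came from the longest GENCODE transcript for 13442 genes with a p, 345 of the table's genes being matched by symbol. The length curve used lowess (statsmodels 0.14.6, window share 0.3) and was tested on simulated data. Intervals are 95% normal intervals from the deposited standard errors. All members are named; list genes were named by smallest p, and several paralogs and genes of large standard error were chosen after their values were seen. The members, lists and rules were chosen with earlier results of these data known, and the lists are no database release. P-values measure the spread between the sequenced libraries, whose separate litters the labels do not state.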

Additional observations from a re-analysis of the deposited data

How the results depend on the processing

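No member passed an adjusted or an unadjusted p of 0.05 under any of the alternatives run. These were thresholds of 0.1 and 0.01, mean normalised count minimums of 200 and 1000 and, for the unadjusted p, removal of the length curve. The smallest p among the members in the authors' DESeq2 Wald test was 0.167, so the thresholds and count minimums could not change either count. The count of positive members ran from 25 of 33 (minimum of 1000) to 27 of 37, and their median log2 fold change from 0.030 (centred at the median of all genes) to 0.034. Members above the length curve numbered from 17 of 33 (minimum of 1000) to 23 of 37 (genomic span in place of transcript length) over 9 alternatives, and their median distance from it ran from 0.0031 (medians in bins) to 0.017 (genomic span). Adding GC content to length left 19 of 37 above, with a median of 0.0053. The median distance thus depended on the measure of length, at 0.0059 with transcript length and 0.017 with genomic span. With coding length it was 0.0061 and with the union of exons 0.0037. It also depended on the form of the curve, at 0.0031 with medians in bins and 0.013 with a straight line. All of these were positive, and the spread of this median between animals is unknown. No count changed by over 1.5 times. No paired analysis was possible because the deposited table holds no values per library, and leaving out a library could not be run for the same reason. The depth of each library is unknown, so only the deposited standard errors limit what can be seen.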

Other observations

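Gigyf1 and Nav2 belonged to a group of genes whose standard errors were large for their mean normalised count. These standard errors come from the authors' DESeq2 fit, and the part of that fit in the pattern below was not tested. Among the 7171 genes whose mean normalised count reached 500, the ratio of the standard error to the median of genes of similar count thinned out above 2.25, with 10 genes from 2.25 to 2.5 and 8 from 2.5 to 2.75, and then 30 from 2.75 to 3. Above 2.5, a limit chosen after seeing the values, lay 161 genes (2.25%), 2 of 34 members, 5 of 112 other autism risk genes (Cacna1e, Dync1h1, Grin2b, Kmt2a and Kmt2c) and 2 of 34 paralogs (Nav1 and Mbd6).

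Of those 161 genes, 135 (83.9%) had a positive log2 fold change. The share was 51.6% over all genes tested, which include genes with a mean normalised count under 500. It was not taken for the 7171 genes alone. The 1 with an unadjusted p under 0.05 was negative, the thalamic marker Prkcd at -1.20, with a standard error of 0.29, in the authors' deposited table, which passed the adjusted threshold of the authors' DESeq2 Wald test (adjusted p = 0.0437). The median transcript length of the 161 was 6322 bases, against 3972 bases for all genes of that abundance. Over all genes, 61.6% of those from 5470 to 7010 bases were positive, and 74.8% of those from 7011 bases. The part of length in the 83.9% was not tested. Genes of several kinds were among the 161, named here after their values were seen. The nuclear long non-coding RNA Malat1 had a log2 fold change of 0.17 with a standard error of 0.66 and Neat1 one of 0.011 with a standard error of 0.25, in the authors' deposited table. The splicing genes Clk4, Luc7l3 and Srsf5 stood at 0.098 (0.19), 0.10 (0.19) and 0.098 (0.17), and the activity-regulated genes Arc, Egr1 and Junb at -0.014 (0.59), -0.031 (0.30) and 0.016 (0.31), in the authors' deposited table. Whether these genes vary together between libraries was not tested, because values per library are unknown.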
